A study of Arabidopsis thaliana with 6 samples.

Results

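Laccases are secreted copper enzymes of the plant cell wall, and 10 laccase genes of Arabidopsis were followed here in seedlings treated with lasalocid sodium (LS). The 10 genes were LAC2 (AT2G29130), LAC4 (AT2G38080, also named IRX12), LAC5 (AT2G40370), LAC7 (AT3G09220), LAC8 (AT5G01040), LAC10 (AT5G01190), LAC11 (AT5G03260), LAC12 (AT5G05390), LAC13 (AT5G07130) and LAC17 (AT5G60020). They were chosen by locus from a family of 17 genes by a rule that uses no measured value. The list was made with earlier results of these data known. All 10 were among the 21827 loci tested, of 29030 loci on the array, and they were read by 11 probes. The treated group was wild-type Col-0 seedlings grown in the dark, 3 days old when moved into liquid medium with 1 µM LS and harvested after 24 h in the dark. The control group was seedlings of the same genotype, age and handling in the same medium with no LS. RNA came from whole seedlings, and each group was measured on 3 single-colour Agilent arrays.

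Laccases take electrons from monolignols, the alcohol units of lignin, and pass them to oxygen, and the monolignol radicals that result couple to each other in the wall. Class III peroxidases do the same with hydrogen peroxide in place of oxygen. In Arabidopsis stems, LAC4, LAC11 and LAC17 are the main laccases of lignin, and plants that lack all of them are strongly stunted. Several laccase transcripts are cut under the direction of microRNAs, namely LAC2, LAC4 and LAC17 by miR397, LAC3, LAC12 and LAC13 by miR408, and LAC7 by miR857. LS itself is an ionophore, which binds cations and takes them through membranes.

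A level below is the log2 of a spot's background-subtracted signal relative to the 75th percentile of its array, so that 0 means as bright as that percentile. Levels are compared between groups for the same probe and not between genes, since probes differ in how brightly they read. The 75th percentile was 1309 to 2123 on the LS arrays and 1067 to 1447 on the control arrays, with LS array 3 the brightest and control array 3 the dimmest. On each array 72.6% to 77.0% of spots were well above background, with 0 saturated. One slide held LS array 1 and all control arrays, and a second slide held LS arrays 2 and 3. Differences were tested with limma, and a gene was called when its Benjamini-Hochberg adjusted p was under 0.05 and its fold change at least 1.5. No source states that the replicates were separate cultures, so p-values measure the spread between these samples. With 3 arrays against 3, an exact permutation test could not give a p below 0.1.

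None of the 10 laccases was called. In LS-treated seedlings, the share called among all 21827 loci was 3.18% higher and 2.19% lower, so that 0 of 10 in either direction was near the background. The log2 fold change was above 0 for 5 laccases and below 0 for 5, with a median of 0.03 against -0.03 over all loci tested. All 10 were well above background on all 6 arrays, and no spot of theirs was marked as an outlier. The 95% interval of the fold change contained 0 for 8 of them and lay within a fold of 2 in either direction for 7, but within a fold of 1.5 for 1. For the 8 whose interval contained 0, a change inside the interval could not be told from 0 with 3 arrays per group. Without adjustment for multiple tests, limma called 0 of 10 higher and 2 of 10 lower, LAC5 and LAC12, where 8.82% and 9.03% of all loci were called higher and lower. The methods' t-test without adjustment called 0 higher and 1 lower, LAC5, against 5.56% and 4.51% of all loci. In whole seedlings, fewer cells of a type and less RNA per cell cannot be told apart.

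**Figure D1:**
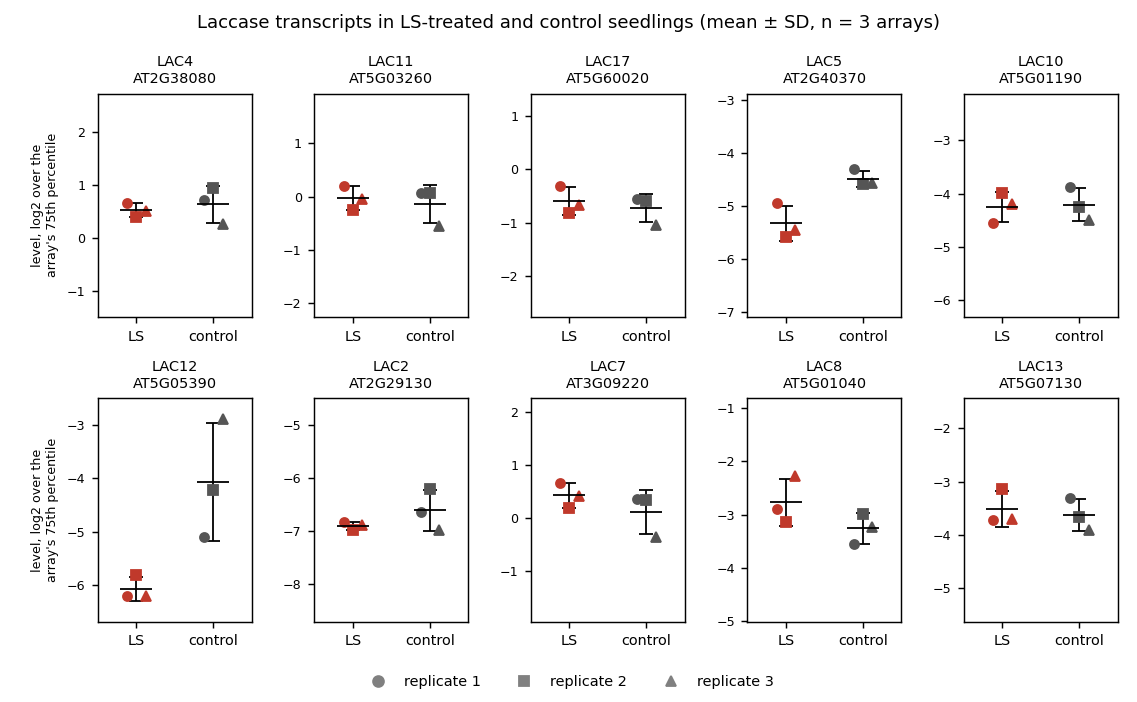
Level of each of the 10 laccases on every array, in log2 over the array's 75th percentile, with LS-treated seedlings on the left and control seedlings on the right of each panel. Points are arrays, the long line is the mean and the error bar the SD (n = 3 arrays). Only for LAC5 and LAC12 do all LS points lie below all control points.

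The laccases of stem lignin had nearly equal means in the groups. LAC4, whose mutant has irregular xylem vessels, was at 0.66, 0.40 and 0.52 in LS-treated seedlings and 0.71, 0.93 and 0.26 in control seedlings. The LS arrays lay inside the range of the control arrays, and the log2 fold change was -0.11 (95% interval -0.59 to 0.38, adjusted p = 0.782 from limma). The second and dimmer probe of LAC4 read -2.40, -2.95 and -2.61 in LS-treated seedlings and -2.38, -2.44 and -2.71 in control seedlings, a log2 fold change of -0.15 (adjusted p = 0.680 from limma). Both probes of the gene were thus on the same side of the threshold and gave similar fold changes.

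LAC17, the partner of LAC4 in stem fibres, was at -0.31, -0.81 and -0.67 in LS-treated seedlings and -0.56, -0.59 and -1.03 in control seedlings. LAC11, which overlaps with both in function, was at 0.20, -0.25 and -0.04 in LS-treated seedlings and 0.07, 0.07 and -0.55 in control seedlings. For each of them LS array 1 was the highest of the 6 and control array 3 the lowest, and the groups overlapped. The log2 fold change was 0.13 for LAC17 (95% interval -0.36 to 0.62, adjusted p = 0.737) and 0.10 for LAC11 (95% interval -0.42 to 0.63, adjusted p = 0.806), both from limma.

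LAC5, LAC10 and LAC12 shape lignin in particular cell types and wall layers, as seen in combined mutants with LAC4 and LAC17. LAC12 had the largest difference of the 10, at -6.20, -5.82 and -6.22 in LS-treated seedlings and -5.10, -4.22 and -2.89 in control seedlings. The LS arrays lay within a narrow range and all below the controls, whereas the control arrays differed from each other more than for any other member, with an SD of 1.12 against 0.23 among the LS arrays. The background-subtracted signals were 17.7, 26.6 and 28.6 on the LS arrays and 42.1, 75.3 and 144.1 on the control arrays. The log2 fold change was -2.01 (95% interval -3.18 to -0.84). It was not called by limma (unadjusted p = 0.00443, adjusted p = 0.0620). Control array 3, the dimmest array as a whole, was the highest for LAC12, and without it the log2 fold change was -1.42.

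LAC5 was at -4.95, -5.58 and -5.46 in LS-treated seedlings and -4.31, -4.60 and -4.56 in control seedlings. Again all LS arrays lay below all control arrays, here with little spread in the controls. The log2 fold change was -0.84 (95% interval -1.32 to -0.35, adjusted p = 0.0620 from limma), also just outside the threshold. LAC10 showed no such separation, at -4.56, -3.99 and -4.20 in LS-treated seedlings and -3.88, -4.26 and -4.49 in control seedlings, with a log2 fold change of -0.04 (adjusted p = 0.931 from limma). All LS arrays lay below all control arrays for 2 of the 10 laccases and above them for 0, where this held for 17.9% and 17.6% of all loci.

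Within the slide that held LS array 1 and the controls, the log2 fold change was -0.46 for LAC5 and -2.13 for LAC12. This comparison holds 1 LS array. The slide as a block gave the same fold changes and no call, where 22 of 21827 loci were called higher and 47 lower. Scaling on the spike-in controls moved all loci alike, with their median at 0.88, and LAC5 was then at 0.07 and LAC12 at -1.10. Relative to that median they were at -0.81 and -1.98, close to their values without it. After the normexp background correction, which adds an offset of 50 to each signal, LAC5 was at -0.45 and LAC12 at -0.88. Where all tested probes of a locus were averaged before the test, both were called lower (adjusted p = 0.0475 for LAC5 and 0.0479 for LAC12, limma). Over all 21827 loci, that setting called 778 lower and 989 higher, against 478 and 694 with the brightest probe. It adjusts over loci and not over probes, and the part of this in the calls was not tested.

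The remaining members belong to other organs or processes. LAC7, a laccase of roots, was at 0.67, 0.20 and 0.42 in LS-treated seedlings and 0.36, 0.35 and -0.36 in control seedlings. Control array 3 alone was low, and the log2 fold change was 0.31 (95% interval -0.26 to 0.88, adjusted p = 0.456 from limma). LAC8, whose mutant flowers early, was at -2.91, -3.14 and -2.27 in LS-treated seedlings and -3.56, -2.99 and -3.23 in control seedlings. Its log2 fold change of 0.49 (95% interval -0.12 to 1.1, adjusted p = 0.287 from limma) was the highest of the 10, and it was 0.24 without LS array 3. LAC13 was at -3.72, -3.13 and -3.70 in LS-treated seedlings and -3.31, -3.66 and -3.92 in control seedlings, a log2 fold change of 0.11 (adjusted p = 0.799 from limma).

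LAC2, whose mutant has compromised root elongation under dehydration, was read close to the detection limit. Its signals were 11.5, 11.9 and 17.8 on the LS arrays and 14.4, 19.0 and 8.38 on the control arrays, where the lowest signal well above background was 7.69 to 11.8 depending on the array. Its levels were -6.83, -6.98 and -6.90 in LS-treated seedlings and -6.65, -6.21 and -6.99 in control seedlings. The groups overlapped, and the log2 fold change was -0.29 (adjusted p = 0.448 from limma).

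**Figure D2:**
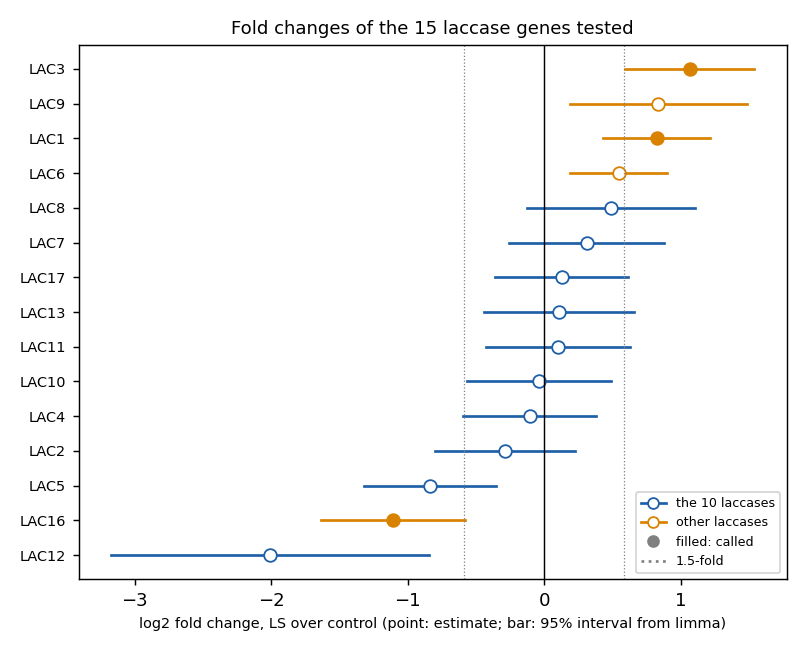
Log2 fold change, LS-treated over control seedlings, of the 15 laccase genes tested, with 95% intervals from limma (3 arrays per group). Filled points were called; dotted lines mark a fold of 1.5. The 10 laccases described first hold no called gene, and among the others LAC3 and LAC1 were called higher and LAC16 lower.

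The 7 further genes of the family complete the picture, and 3 of them were called. LAC3 (AT2G30210), which sits at the Casparian strip, the lignin ring of the root endodermis, was at 1.83, 1.78 and 1.75 in LS-treated seedlings and 0.95, 0.88 and 0.32 in control seedlings. The LS arrays were nearly equal and all above the controls, with a log2 fold change of 1.07 (SE 0.20, adjusted p = 0.0349 from limma). LAC1 (AT1G18140) was at -1.16, -1.59 and -1.36 in LS-treated seedlings and -2.15, -2.18 and -2.25 in control seedlings, a log2 fold change of 0.82 (SE 0.17, adjusted p = 0.0394 from limma). For LAC1 the controls hardly differed from each other.

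LAC16 (AT5G58910) was called lower, at -6.80, -6.34 and -6.94 in LS-treated seedlings and -5.37, -5.49 and -5.91 in control seedlings. Its log2 fold change was -1.11 (SE 0.23, adjusted p = 0.0400 from limma), and its signals were low, at 11.8 to 18.5 on the LS arrays and 17.8 to 35.1 on the control arrays. LAC6 (AT2G46570), at 0.55 with an adjusted p of 0.0819, and LAC9 (AT5G01050), at 0.84 with an adjusted p of 0.117, were not called by limma, although all their LS arrays lay above all their control arrays. Signals were low for these genes too, at 12.7 to 39.2 for LAC6 and 12.4 to 82.8 for LAC9. After the normexp correction LAC6 was at -0.03 and LAC9 at 0.21. LAC9 stands next to LAC8 in the genome with 0 coding genes between them, and whether their probes read each other's transcripts was not tested. LAC14 (AT5G09360) was well above background on 0 arrays. LAC15 (AT5G48100), known as TT10 and needed for the brown colour of the seed coat, had a probe well above background on 2 of 3 arrays in each group and another on 0, and neither LAC14 nor LAC15 was tested.

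Of the 5 further laccases tested, 2 were called higher and 1 lower, against 3.18% and 2.19% of all loci. Their median log2 fold change was 0.82, against -0.03 over all loci tested. The difference between these 5 and the 10 above was not tested. Leaving out each replicate in turn left 0 or 1 of the 5 called higher and 0 or 1 lower, and 1 of each was called only without LS replicate 2. Calls over all loci also fell in these settings, to between 43 and 502 higher and between 16 and 418 lower, against 694 and 478 with all arrays. Within the slide that held both groups the log2 fold changes were 1.11 for LAC3, 1.03 for LAC1 and -1.21 for LAC16 (adjusted p = 0.119, 0.0621 and 0.0908 from limma), and after the normexp correction LAC16 was at -0.34 and not called.

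Arrays within a group differed along a pattern that several laccases shared. Control array 3 was the lowest and LS array 2 the next lowest of the 6 for LAC2, LAC4, LAC7, LAC11 and LAC17, which is 5 of 10 laccases against 2.85% of 21650 loci with a value on every array. Control array 3 was the lowest for 6 of 10 laccases and for 21.4% of loci. This pattern was picked out after the values were seen and crosses the groups, so that it is a description of these 6 arrays. The same order held for 2 of 4 secondary wall cellulose genes and for 0 of 4 xylem vessel markers, although control array 3 was the lowest for 2 of these markers.

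**Figure D3:**
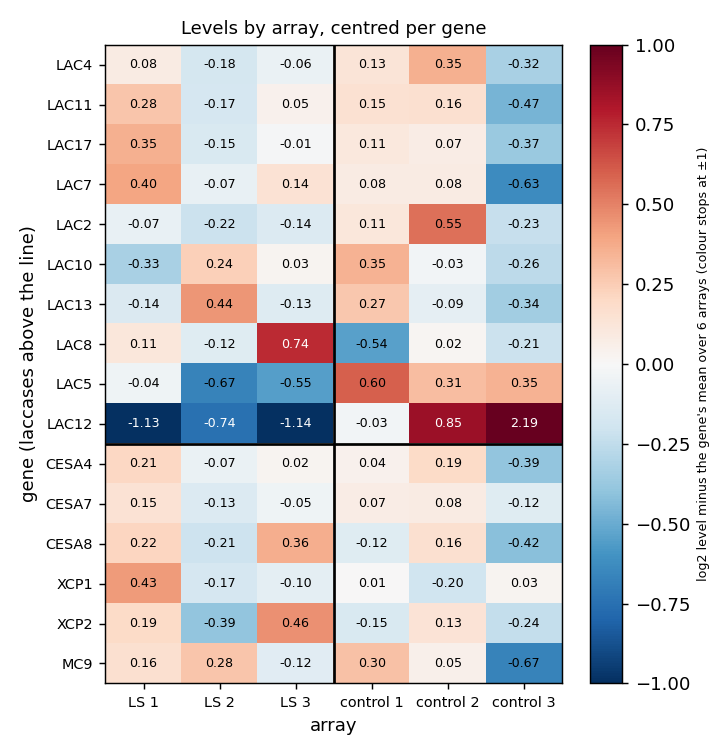
Level of the 10 laccases, and below the line of secondary wall cellulose synthases (CESA4, CESA7, CESA8) and xylem vessel markers (XCP1, XCP2, MC9), on each array after subtracting the gene's mean over the 6 arrays, in log2 units. LS arrays are on the left and control arrays on the right; LAC4, LAC11, LAC17, LAC7 and LAC2 are all lowest on control array 3, while LAC12 is highest there.

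Over the 6 arrays, the Pearson correlation between pairs of the 10 laccases had a median of 0.109 over 45 pairs, with a range of -0.826 to 0.966. It was above 0.9 for 4 pairs, namely LAC11 with LAC17, LAC7 with LAC11, LAC7 with LAC17 and LAC2 with LAC4. LAC7 and LAC12 ran most opposite. The points share the arrays and both groups, and each correlation rests on 6 of them. Of 20648 loci above background on every array, those most like LAC4 over the 6 arrays were AT4G00910 (r = 0.983), AT2G34460 (r = 0.981) and AT3G22150 (r = 0.972). Those most like LAC17 were BETA-OHASE 1 (AT4G25700, r = 0.977), WRI1 (AT3G54320, r = 0.975), a transcription factor of seed oil synthesis, and CMT1 (AT1G80740, r = 0.973), a DNA methyltransferase gene. These loci were picked as the highest of all those values.

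Cell type markers were compared beside the laccases. None of the 4 xylem vessel markers (XCP1, XCP2, MC9 and VND7) was called, and their log2 fold changes lay between 0.11 and 0.22. The mean level of these markers was -0.24, -0.54 and -0.44 on the LS arrays and -0.45, -0.54 and -0.76 on the control arrays. Of 7 endodermis markers, 1 was called higher and 0 lower, against 3.18% and 2.19% of all loci. Their median log2 fold change was -0.15. The one called was CASP4 (AT5G06200), a scaffold protein of the Casparian strip, at -0.40, -0.74 and -0.55 in LS-treated seedlings and -1.28, -1.28 and -1.72 in control seedlings (log2 fold change 0.87, adjusted p = 0.0464 from limma). The mean level of the endodermis markers was 1.93, 1.88 and 1.55 on the LS arrays and 1.76, 1.94 and 1.90 on the control arrays, so the groups overlapped for the list, while LAC3 and CASP4 were called higher. All markers of both lists were well above background on all 6 arrays. Their part in the laccase values was not tested.

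Of 4 genes that differ between dark and light growth (PORA, PORB, LHCB1.1 and RBCS1A), 0 were called in either direction by their brightest probes, with a median log2 fold change of -0.44. RBCS1A, for the small subunit of Rubisco, differed most among these, at -0.86 (adjusted p = 0.174 from limma), and its other probes read -0.50 to 0.15. Another probe of LHCB1.1, a light-harvesting protein, was called lower at -1.51 (adjusted p = 0.0367 from limma), and its brightest probe lacked a value on LS array 3.

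The enzymes that make monolignols, the substrates of laccases, had more calls than the 10 laccases, a difference that was not tested. Of 19 genes of monolignol synthesis tested, 4 were called higher and 0 lower, against 3.18% and 2.19% of all loci. Their log2 fold changes had a median of 0.57, and for 13 of 19 all LS arrays lay above all control arrays, which held for 17.6% of all loci. 4CL5 (AT3G21230), a ligase that activates hydroxycinnamic acids, was at -1.32, -1.46 and -1.01 in LS-treated seedlings and -3.10, -3.32 and -3.83 in control seedlings (log2 fold change 2.16, adjusted p = 0.0120 from limma). 4CL2 (AT3G21240), a ligase of the same family, had a log2 fold change of 1.23 (adjusted p = 0.0300 from limma). CAD4 (AT3G19450), which makes the alcohols in the last step, had 0.89 (adjusted p = 0.0413 from limma), while its 2 other probes had 0.70 and 0.35 and were not called. The fourth was COMT1 (AT5G54160), a methyltransferase named here after its values were seen, with 0.63 (adjusted p = 0.0495 from limma). Its other probes had 0.62, 0.62 and 0.71 and were not called (adjusted p = 0.0547, 0.0517 and 0.0652 from limma). The count called higher was 3 with median centring, with outlier marks ignored and with probes well above background on all 6 arrays. It was 5 with quantile normalization and with spike-in scaling, and 8 with normexp. Over all loci, the first 3 of these settings called 596, 679 and 621 higher. Quantile normalization, spike-in scaling and normexp called 824, 1822 and 828 loci higher, against 694 in the main test. Leaving out any 1 replicate left 0 to 2 of the 19 called higher, with 0 when control replicate 2 was absent, where 43 of 21871 loci were called higher. With the slide as a block, 0 of the 19 were called, where 22 of 21827 loci were called higher and 47 lower. Within the slide that held both groups, with 1 LS array, the log2 fold changes were 2.1 for 4CL5, 1.37 for 4CL2 and 0.91 for CAD4.

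Of 10 class III peroxidases tied to lignin, 1 was called higher and 0 lower, against 3.18% and 2.19% of all loci. Their median log2 fold change was 0.11, with 5 above 0 and 5 below. For 2 of the 10 all LS arrays lay above all control arrays and for 3 all lay below. The shares over all loci were 17.6% and 17.9%. The one called was PRX64 (AT5G42180), a peroxidase of the Casparian strip, at 2.60, 2.53 and 2.22 in LS-treated seedlings and 1.75, 1.48 and 1.34 in control seedlings (log2 fold change 0.92, adjusted p = 0.0386 from limma). It was called in 1 of the 6 settings that left out a replicate, the one without LS replicate 3, and was not called with median centring (adjusted p = 0.0508) or with the slide as a block. Within the slide that held both groups its log2 fold change was 1.08 (adjusted p = 0.0871 from limma).

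The regulators and partners of laccases in the secondary wall were not called. Of 15 regulators of the secondary wall, 11 were tested and 0 were called, with a median log2 fold change of 0.18. MYB42 (AT4G12350) had the largest of them, 0.92 (SE 0.40, adjusted p = 0.199 from limma). Its probe passed the background limit on 3 of 3 LS arrays and 2 of 3 control arrays. The 4 genes of secondary wall cellulose, the CESA subunits CESA4, CESA7 and CESA8 and the wall protein COBL4, had log2 fold changes between -0.02 and 0.33, the highest for COBL4 (AT5G15630, adjusted p = 0.381 from limma), and 0 were called.

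**Figure D4:**
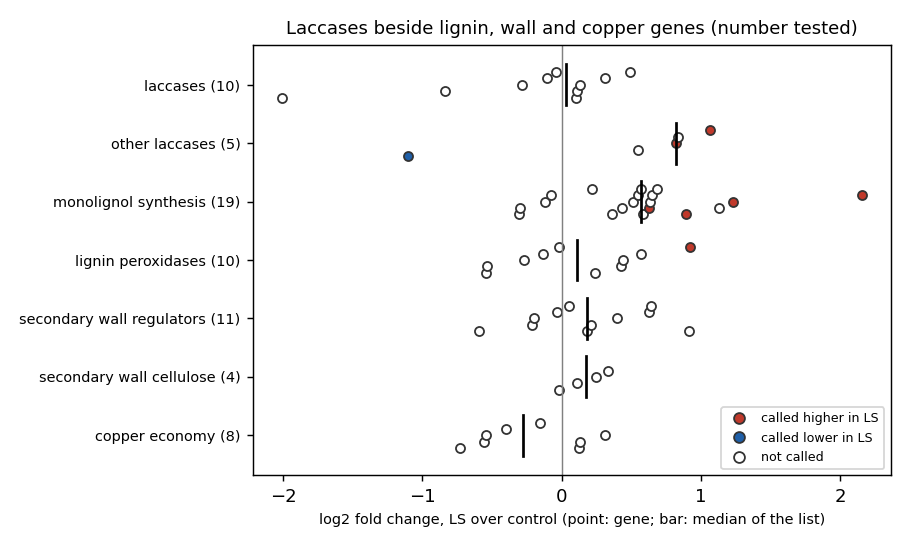
Log2 fold change, LS-treated over control seedlings, of each gene tested in the laccase lists and in lists of lignin, secondary wall and copper genes, with the median of each list as a bar and the number tested in brackets. The 10 laccases are spread around 0, and the genes of monolignol synthesis lie mostly above 0. The copper list has a median of -0.28, with 3 of 8 genes above 0.

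MicroRNAs and copper supply are among the known controls of laccase transcripts. MIR408 (AT2G47015) was at -4.94, -4.78 and -5.24 in LS-treated seedlings and -5.69, -5.22 and -5.50 in control seedlings, a log2 fold change of 0.49 (adjusted p = 0.177 from limma) that was not called. Its targets LAC3, LAC12 and LAC13 had log2 fold changes of 1.07, -2.01 and 0.11. MIR857 (AT4G13554) was well above background on 0 arrays, and no probe was matched by locus to MIR397A or MIR397B. A probe for a microRNA gene reads its longer transcript, and mature microRNAs were not analysed here.

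Of 8 genes of copper economy, which hold the regulator SPL7, copper transporters, copper proteins and a copper chaperone, 0 were called, with a median log2 fold change of -0.28. For 4 of 8 all LS arrays lay below all control arrays and for 1 of 8 all lay above, where the shares over all loci were 17.9% and 17.6%. COPT6 (AT2G26975), a copper transporter of the plasma membrane, differed most, at 1.02, 1.42 and 0.16 in LS-treated seedlings and 1.56, 1.54 and 1.70 in control seedlings. LS array 3 was far below the other arrays, and the log2 fold change of -0.73 (adjusted p = 0.189 from limma) was 0.18 with spike-in scaling, or -0.70 relative to the median of all loci in that scaling.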

How the data were processed

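RNA of whole seedlings was measured on 6 single-colour arrays, 3 per group. The authors scanned them with Agilent Feature Extraction 10.7.3 (submitters' processing notes), which gave a background-subtracted intensity per spot. A second table that the authors deposited holds a ratio for 38614 spots, each intensity over the array's 75th percentile. All 11 laccase probes are in it, and 0 columns could not be assigned to a sample.

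After removal of 1417 control spots, the log2 intensity was taken minus the array's 75th percentile, spots marked as outliers were set missing (257 tested probes) and spots of one probe were averaged. Probes entered the test when they were well above background on all arrays of 1 group or both, which left 32370 of 43603 probes. Of the 21827 loci, 21613 matched the TAIR10.1 reference, and 2725 tested probes name no locus. The array's annotation is older than the reference, so no coordinates are given. A locus was represented by its brightest tested probe. Groups were compared with limma 3.58.1 in R 4.3.3 (lmFit, eBayes), with Benjamini-Hochberg adjustment over all tested probes. The number of arrays limits the precision. The limma fit and the call thresholds were run on simulated levels of the filtered probes. Normalization, background correction, filters and the choice of probe were not tested in that way.

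The genes and lists were chosen with earlier results of these data known. Named genes were all laccases, of each other list the 3 largest called changes or otherwise the largest, the 3 loci most like LAC4 and LAC17, and the microRNA genes. COMT1, and the order of arrays that several laccases shared, were picked after values were seen. The methods' t-test is Welch's, run on the same log2 values. The 24 alternatives covered normalization, background correction, spike-in scaling, filters, outlier marks, tests, thresholds, replicate number and slide as blocks, the deposited ratio table, the mean of all probes and replicates left out. The normexp correction used the median signal. Leaving out control replicate 3 and LS replicate 3 together, and running the alternatives on the further laccases, was added after the data were seen. Replicate numbers were not used to pair the samples in the main test, and no source states whether same-numbered samples belong together.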

Additional observations from a re-analysis of the deposited data

How the results depend on the processing

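Of the 10 laccases, 0 were called higher under each of the 24 alternatives, and 0 lower under all but 3, namely limma without adjustment (2), the mean of all probes of a locus (2) and the methods' t-test without adjustment (1). Over all loci, these 3 settings called 1971, 778 and 985 lower, against 478 in the main test. Of the 5 further laccases, 2 were called higher and 1 lower. The counts were 0 and 0 with no filter on dim probes and with the methods' t-test after adjustment. They were also 0 and 0 with the slide as a block, and without control replicate 3 and LS replicate 3. Calls over all loci fell in these settings too, from 694 higher and 478 lower. They were 114 and 67 with no filter, and 1 and 0 with the t-test after adjustment. With the slide as a block they were 22 and 47, and without both replicates 3 they were 115 and 55. With a fold of at least 2, the counts among the 5 laccases were 1 and 1, where 469 and 333 of all loci were called. Of the 5, the count higher was 3 with quantile normalization (LAC6 added), with spike-in scaling (LAC9 added) and with limma without adjustment. These settings called 824, 1822 and 1926 of all loci higher. The count lower was 0 with quantile normalization, normexp and spike-in scaling, where 410, 450 and 27 of all loci were called lower. Each replicate left out in turn gave 0 to 1 higher and 0 to 1 lower. Same-numbered samples did not deviate together (r = 0.03, -0.12 and -0.19), and with the replicate block the counts were 0 and 0 for both the 10 and the 5 laccases, with 170 loci called higher and 109 lower in all, against 694 and 478. The causes were not tested.

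Some signs turned. With spike-in scaling, which moved the median of all loci to 0.88, LAC2, LAC4, LAC5, LAC10 and COPT6 were at 0.62, 0.80, 0.069, 0.87 and 0.18, all below that median. With normexp, LAC13 was at -8.5e-05 and LAC6 at -0.032. With the slide as a block and within slide 1, LAC4 was at 0.030 and LAC13 at -0.087. Without control replicate 3 and LS replicate 3, LAC11 was at -0.10, while LAC10, at -0.20, kept its sign. With each replicate left out, the range was -0.29 to 0.042 for LAC4, -0.18 to 0.13 for LAC10, -0.10 to 0.21 for LAC11, -0.079 to 0.27 for LAC13 and -0.026 to 0.23 for LAC17. LAC7, LAC8 and LAC12 kept their sign under all 24. The number of arrays, and for LAC2, LAC6, LAC9, LAC12 and LAC16 a signal near background, limit what could be detected.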
